A study of Rattus norvegicus with 12 samples.

Results

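The genes described here are 10 enzymes of transamination and of the breakdown of small amino acids: Gpt, Gpt2, Got1, Got2, Oat, Agxt, Sds, Hal, Uroc1 and Prodh. They were named by symbol, and for each the array row with the highest mean signal was to be used. All 10 were found among the 18166 genes tested, each with a single row. They were measured in liver RNA of 12 male obese Zucker rats, 1 rat per Affymetrix Rat Gene 2.0 ST array. The rats were homozygous for the fa allele of the leptin receptor gene (fa/fa), in both diet groups, so that no lean animals enter the comparison. Feeding began at an age of 5 to 6 weeks, and the rats were killed on day 29. Of the 12 rats, 6 had eaten a control diet without supplement and 6 a diet with 5% PSC, the labels' name for a supplement that the series title calls a biotechnologically produced oyster mushroom. Each feeding group held 12 rats, so that the arrays cover 6 of 12 rats per diet. Diets held comparable energy and crude nutrients, and the title asks for the physiological effects in the liver.

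Aminotransferases move the amino group of an amino acid to a keto acid, with pyridoxal phosphate (active vitamin B6) as cofactor. In the liver these and related enzymes feed the carbon of alanine, aspartate, serine, histidine, ornithine and proline into pyruvate, glutamate and the citric acid cycle, from which glucose can be made, and pass the nitrogen on to urea. Many of these genes are induced by fasting, glucagon, glucocorticoids or protein-rich food, and several are zoned: Sds and Hal lie mainly around the portal vein, Oat around the central vein.

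Values are log2 signals from RMA, on which a difference of 1 is a doubling of signal. Levels of different genes on the array are not compared. A gene is said to have risen or fallen where its adjusted p lay below 0.05 (limma, Benjamini-Hochberg over all 18166 genes). By that rule 2.6% of all genes changed, 0.716% higher and 1.89% lower with PSC. The higher share of these calls, 27.5%, was 12.3% after median centring of the arrays. Array medians lay between 4.71 and 4.85 and arrays correlated at 0.987 to 0.995 across genes. The hepatocyte genes were bright on every array, with Alb, the albumin gene, at a mean of 13.16 in controls and 13.16 in PSC-fed rats. The number of arrays limits the precision. Rats were housed 2 to a cage, and cage mates among the arrays cannot be recognised from the labels.

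Gpt and Uroc1 rose in PSC-fed rats, and no member fell. These were 2 of 10 members, and 8 did not pass. Of the 8, Oat, Sds, Agxt and Hal had values of 0.41 to 0.85 on the log2 scale with adjusted p between 0.0845 and 0.102, whereas Gpt2, Got1, Got2 and Prodh had values between -0.10 and 0.18. The value was above 0 for 9 of 10 members and for 53.9% of all genes, and the median was 0.39 for the members and 0.013 for all genes. An unadjusted p below 0.05 with a higher mean was found for 6 of 10 members and for 9.02% of all genes. Uroc1 was the 1 member without overlap between the diets, which held for 0.71% of all genes in the higher direction. The members were chosen with earlier results of these data known, so the choice itself can raise these counts and the median. These shares describe the members only, and no set was tested.

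**Figure D1:**
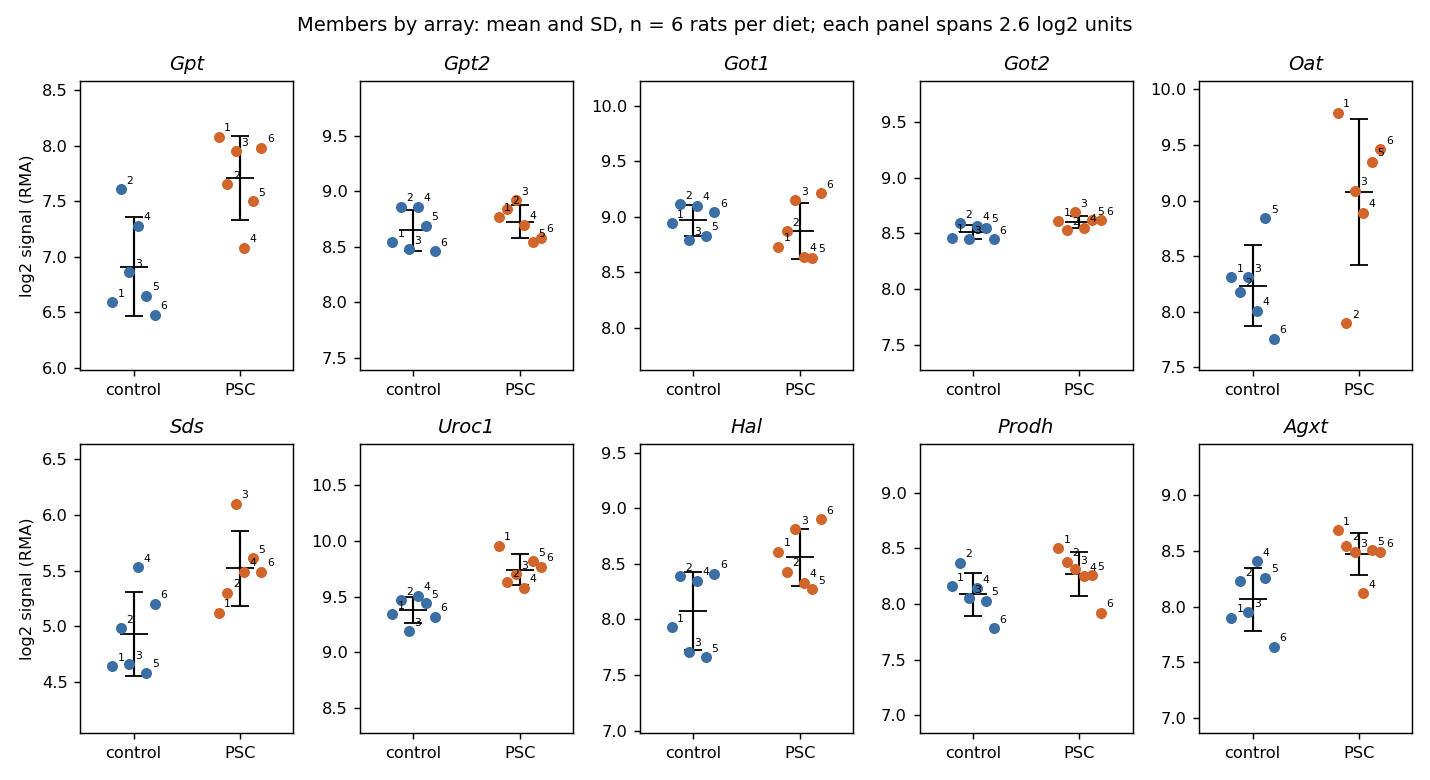
Log2 signal (RMA, vertical axis) of each of the 10 members on each array, with control rats in blue, PSC-fed rats in orange and the replicate number beside each point; bars show mean and SD of 6 rats. All 6 PSC points of Uroc1 lie above every control, while for the other 9 members the diets overlap.

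Gpt encodes the cytosolic alanine aminotransferase, which turns alanine and 2-oxoglutarate into pyruvate and glutamate and whose plasma activity (ALT) is the common clinical sign of liver injury. Its log2 signal ran from 6.48 over a median of 6.76 to 7.61 in controls, and from 7.08 over 7.80 to 8.08 in PSC-fed rats. PSC replicates 1, 2, 3 and 6 lay above every control, and PSC replicates 4 and 5 within the range set by control replicate 2, the highest control. The means were 6.91 ± 0.44 and 7.71 ± 0.38 (SD, n = 6), a rise of 0.80 (SE 0.20) or 1.74-fold, with an adjusted p of 0.0488 by limma. Permuting the diet over every assignment of the arrays (exact, two-sided) gave an unadjusted p of 0.013. All 6 PSC arrays lay above the control mean.

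The call of Gpt stood close to the threshold. It was kept without control replicate 2 (adjusted p = 0.0159) and without PSC replicate 4 (0.0166). It was lost without control replicate 1 (0.116), 3 (0.085), 4 (0.0624), 5 (0.0902) or 6 (0.104), and without PSC replicate 1 (0.0908), 2 (0.0704), 3 (0.0814), 5 (0.0742) or 6 (0.103), all by limma. The value itself stayed between 0.71 and 0.93 in these 12 fits.

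Gpt2, the mitochondrial alanine aminotransferase, did not pass. Its log2 signal was 8.65 ± 0.18 in controls, between 8.46 and 8.86, and 8.73 ± 0.15 with PSC, between 8.54 and 8.92 (SD, n = 6). The difference of 0.08 had a 95% interval from -0.12 to 0.27 and an adjusted p of 0.675 (limma). The diets overlapped almost fully, with 1 PSC array above every control.

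The ratio of the cytosolic to the mitochondrial form differed between diets. Within each array the log2 signal of Gpt minus that of Gpt2 was -1.74 ± 0.31 on control arrays and -1.02 ± 0.37 on PSC arrays (mean ± SD, n = 6), where only the change between diets can be read. The change of 0.72, a 1.65-fold higher ratio, had an exact two-sided permutation p of 0.00866, or 0.026 after Benjamini-Hochberg adjustment over the 3 pairs tested. The pairs were chosen with earlier results of these data known, which this adjustment does not cover. The change largely repeats the rise of Gpt by 0.80, as Gpt2 differed by only 0.08. PSC arrays lay above every control in 5 of 6 cases. The adjusted p was 0.0519 without control replicate 1, 5 or 6, and at most 0.0455 without any other single array.

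Got1 and Got2 encode the cytosolic and the mitochondrial aspartate aminotransferase, which interconvert aspartate and glutamate and carry reducing equivalents into mitochondria as parts of the malate-aspartate shuttle. Neither passed. Got1 went from 8.97 ± 0.14 to 8.87 ± 0.25 (SD, n = 6), a value of -0.10 with a 95% interval from -0.32 to 0.13 and an adjusted p of 0.652 (limma). PSC replicates 1, 4 and 5 lay below every control and PSC replicates 3 and 6 above every control, so that the PSC-fed rats spread to both sides.

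Got2 was the steadiest member, with a within-diet SD of 0.061 that was lower than that of all but 2.47% of genes. It went from 8.51 ± 0.065 to 8.60 ± 0.057 (SD, n = 6), a value of 0.09 with a 95% interval from -0.021 to 0.20 and an adjusted p of 0.362 (limma). The exact permutation test, which does not moderate this small spread, gave an unadjusted p of 0.039, with 4 PSC arrays above every control. The value of Got2 depended on the normalization. It was 0.047 after median centring and 0.12 after renormalization or cyclic loess (adjusted p = 0.743, 0.232 and 0.216, limma). The log2 difference between Got1 and Got2 changed by -0.19 between diets (exact permutation p = 0.117, adjusted over the 3 pairs 0.175).

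Oat encodes the mitochondrial ornithine aminotransferase, which turns ornithine into glutamate semialdehyde and so links ornithine to proline and glutamate. It had the largest value of the members and did not pass. The log2 signal ran from 7.76 over a median of 8.25 to 8.84 in controls and from 7.90 over 9.22 to 9.79 in PSC-fed rats. PSC replicates 1, 3, 4, 5 and 6 lay above every control, and PSC replicate 2 lay below all controls but control replicate 6.

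The means of Oat were 8.24 ± 0.36 and 9.08 ± 0.66 (SD, n = 6), a value of 0.85 (SE 0.26) or 1.80-fold, with an adjusted p of 0.0884 by limma. The 95% interval ran from 0.30 to 1.39, and the exact permutation p was 0.0281, unadjusted. Without PSC replicate 2 the value was 1.08 and the adjusted p 0.0114. Oat passed in no other fit without 1 array (adjusted p up to 0.171). Across arrays PSC replicate 2 also had the lowest limma weight, 0.544, against 0.82 for the next lowest.

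Agxt encodes the alanine-glyoxylate aminotransferase, which also uses serine and removes glyoxylate before it can become oxalate. Its log2 signal was 8.07 ± 0.28 in controls, from 7.64 to 8.41, and 8.48 ± 0.19 in PSC-fed rats, from 8.12 to 8.69 (SD, n = 6). In PSC-fed rats 5 of 6 arrays lay above every control, and PSC replicate 4 lay within the controls. The value of 0.41 (SE 0.12) or 1.33-fold had an adjusted p of 0.0866 (limma). It passed without PSC replicate 4, at 0.48 and an adjusted p of 0.0364, but in no other fit without 1 array (adjusted p up to 0.179).

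Sds encodes serine dehydratase, which releases ammonia from serine to give pyruvate and is a classical marker of active gluconeogenesis from amino acids. Its log2 signal ran from 4.58 over a median of 4.82 to 5.53 in controls and from 5.12 over 5.49 to 6.10 in PSC-fed rats. PSC replicates 3 and 5 lay above every control, and control replicate 4, the highest control, lay within the PSC range. The value of 0.59 (SE 0.17) had an adjusted p of 0.0845 (limma) and an exact permutation p of 0.0238, unadjusted.

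Hal and Uroc1 encode successive enzymes of histidine breakdown: histidine ammonia-lyase gives urocanate, and urocanate hydratase takes it on towards glutamate. Uroc1 rose. Its log2 signal ran from 9.19 over a median of 9.39 to 9.51 in controls and from 9.58 over 9.74 to 9.96 in PSC-fed rats. All 6 PSC arrays lay above every control, PSC replicate 1 highest and PSC replicate 4 lowest.

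The means of Uroc1 were 9.38 ± 0.12 and 9.74 ± 0.14 (SD, n = 6), a rise of 0.36 (SE 0.075) or 1.29-fold, with an adjusted p of 0.0245 (limma). The exact permutation p was 0.00216, the smallest that these arrays can give. Leaving out control replicate 1 ended the call (adjusted p = 0.0625), as did leaving out control replicate 6 (0.0535), PSC replicate 5 (0.0553) or PSC replicate 6 (0.0542). It was kept in the other 8 such fits.

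Hal had a larger value with a wider spread. Its log2 signal was 8.08 ± 0.35 in controls, from 7.66 to 8.41, and 8.56 ± 0.26 in PSC-fed rats, from 8.27 to 8.90 (SD, n = 6). In both diets the rats spread widely, and 4 of 6 PSC arrays lay above every control. The value of 0.48 (SE 0.15) or 1.40-fold had an adjusted p of 0.102 (limma). The log2 difference between Hal and Uroc1 changed by 0.12 between diets (exact permutation p = 0.504 before and after adjustment over the 3 pairs).

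Prodh encodes proline dehydrogenase, the first enzyme of proline breakdown. It went from 8.09 ± 0.19 to 8.27 ± 0.19 (SD, n = 6), a value of 0.18 with a 95% interval from -0.036 to 0.40 and an adjusted p of 0.35 (limma). PSC replicates 1 and 2 lay above every control, while PSC replicate 6 lay below all controls but control replicate 6.

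**Figure D2:**
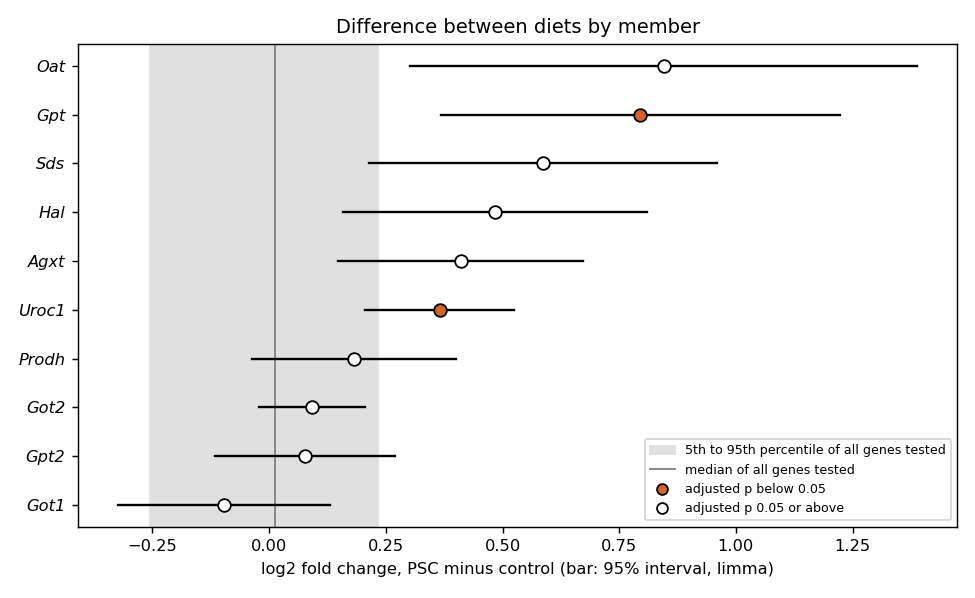
Log2 fold change, PSC minus control (horizontal axis), of each member with its 95% interval from limma, filled where the adjusted p lay below 0.05; the grey band spans the 5th to 95th percentile of all 18166 genes, from -0.26 to 0.23. Oat, Gpt, Sds, Hal, Agxt and Uroc1 lie to the right of the band, and Prodh, Got2, Gpt2 and Got1 inside it.

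The sequence before the start of Uroc1, the member without overlap, and of Oat, the member with the largest value, is shown for context. RefSeq's promoter table (GRCr8) held 6 of the 10 members, Gpt2, Got1, Got2, Oat, Uroc1 and Agxt, the last with 2 starts. Both stretches hold the 250 bases before the annotated start, written 5′ to 3′ on the gene's strand, Oat at chr1:196797755-196798004 on the minus strand and Uroc1 at chr4:124401869-124402118 on the plus strand. Capitals mark the letters CACCC on either strand, a motif known from factors of the KLF family.
Uroc1: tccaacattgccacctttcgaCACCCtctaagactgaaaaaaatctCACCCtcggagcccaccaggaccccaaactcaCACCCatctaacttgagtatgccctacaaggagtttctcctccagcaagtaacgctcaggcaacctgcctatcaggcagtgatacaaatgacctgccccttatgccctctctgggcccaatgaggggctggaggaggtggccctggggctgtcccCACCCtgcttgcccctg
Oat: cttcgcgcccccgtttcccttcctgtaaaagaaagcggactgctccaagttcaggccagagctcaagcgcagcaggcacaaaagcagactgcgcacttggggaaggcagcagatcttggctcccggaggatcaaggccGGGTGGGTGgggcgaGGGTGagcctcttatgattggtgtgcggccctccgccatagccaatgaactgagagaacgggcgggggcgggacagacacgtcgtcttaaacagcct

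CACCC occurred 4 times before Uroc1 and 3 times before Oat, in Oat on the opposite strand and with an overlap of the first pair. It was found before 6 of the members' 7 starts, Got1 being the exception, and before 49.2% of all 33469 starts in the table. The letters TGACG, part of the cyclic AMP response element, were before 0 of the 7 starts and 18.2% of all starts, counting both strands. The full element TGACGTCA, which contains TGACG, and the glucocorticoid response element, searched as a palindrome with a spacer of any 3 bases, were before 0 of the 7, 1.59% and 0.012% of all starts. These motifs were chosen after the values were seen. A match is a string of letters in this window and not a measured site.

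Members differed in how much the rats of 1 diet varied. The within-diet SD was 0.53 for Oat, 0.41 for Gpt, 0.36 for Sds and 0.31 for Hal, which is above that of 99.7%, 99.0%, 98.1% and 96.3% of all genes. Agxt stood at the 90.1st percentile with 0.24 and Uroc1 at the 40.1st with 0.13. Uroc1 thus passed with a smaller value and a smaller spread than Gpt.

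The arrays ordered themselves in a similar way across several members, but not across all. Relative to the control mean, the 10 members averaged 0.54 on PSC replicate 3, 0.50 on PSC replicate 1 and 0.46 on PSC replicate 6. PSC replicate 4 had the lowest mean of the PSC arrays, 0.18, with 2 members above every control. Among controls, replicates 2 and 4 stood highest, at 0.20 and 0.19, with 9 of 10 members above the control mean on each. Control replicate 6 held or shared the lowest control value of 6 members, but the highest of 1, Hal. PSC replicate 6 held the highest PSC value of 2 members and the lowest of 1, Prodh.

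**Figure D3:**
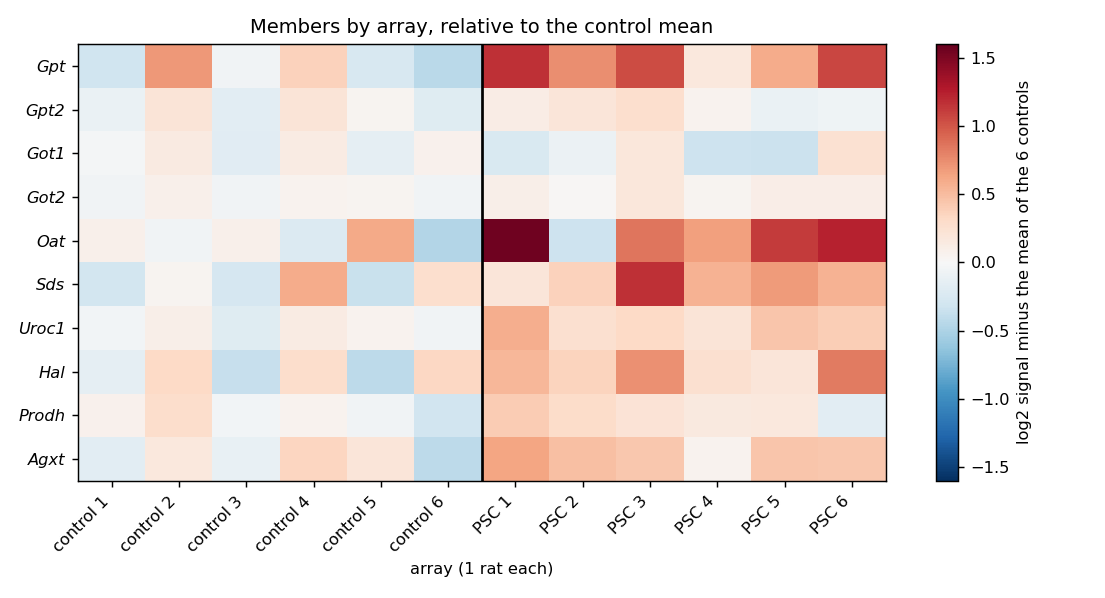
Log2 signal of each member (rows) on each array (columns) minus the mean of the 6 controls, red above and blue below it; the black line separates the diets. Gpt and Oat show the strongest red among PSC arrays, Oat on PSC replicate 2 is blue, and control replicates 2 and 4 are pale red for most members.

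After each diet's mean was subtracted, 37 of the 45 pairs of members correlated above 0 over the 12 arrays, with a median r of 0.36. Got1 and Hal were most alike (Pearson r = 0.85, Spearman rho = 0.81, and r = 0.84 without the 2 arrays farthest from the median of Got1). Gpt and Agxt followed at 0.74 (rho 0.70, and 0.67 without 2 arrays). Oat and Sds, of opposite zones, stood lowest at -0.28 (rho -0.57), with r = -0.76 among controls and 0 among PSC arrays. These are descriptions of 12 arrays that share their normalization and are given without a test. The share of pairs above 0 among all genes was not computed, so whether the members stand out in this is not known.

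The genes most like Gpt by the same measure were G0s2, an inhibitor of triglyceride lipase (r = 0.93, rho = 0.85), Serpina4 (r = 0.93), Mrpl3, a mitochondrial ribosomal protein gene (r = 0.92), and Aqp9, the glycerol channel of hepatocytes (r = 0.92). Of these G0s2 rose, by 0.68 (SE 0.14, adjusted p = 0.0274, limma), a call kept in 4 of 12 fits without 1 array, with an adjusted p of up to 0.0699, and Serpina4, Mrpl3 and Aqp9 had values of 0.10, -0.018 and 0.10. Most like Oat were Slamf7 (r = 0.96, rho = 0.95), Arl6ip6 (0.95 and 0.96), Zmat2 (0.91 and 0.86) and Ppp1r14a (0.89 and 0.70), none of which passed. Oat and these genes all had their lowest PSC value on PSC replicate 2, and r without that array was not computed. The genes given for Gpt and Oat are the highest of 18166 genes over 12 arrays.

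The genes around the members in these pathways were read from 9 lists with 82 measured genes of 97. Of these 5 rose and 2 fell, against 2.6% of all genes called in either direction, and the median value was 0.043. In the list of other aminotransferases, 1 of 9 rose. Kyat1, which transaminates kynurenine and glutamine, went from 7.31 ± 0.13 to 7.68 ± 0.15 (SD, n = 6; adjusted p = 0.0277, limma), with 5 PSC arrays above every control. The other 8 had values between -0.26 (Psat1) and 0.16 (Aadat). Tat, the tyrosine aminotransferase and a classical glucocorticoid target, named here after its value was seen, had -0.025.

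In serine, threonine and glycine breakdown, 1 of 12 rose and 0 fell, with a median of 0.083. Srr, serine racemase, which can also dehydrate serine to pyruvate, went from 9.09 ± 0.034 to 9.29 ± 0.055 (SD, n = 6; adjusted p = 0.0453, limma) without overlap between the diets. In histidine breakdown, 0 of 5 passed. Amdhd1, the enzyme after Uroc1 in the pathway, had the smallest p of that list and a value of -0.30 (SE 0.26, adjusted p = 0.561), with control replicate 6 at 9.38 and every other array at 8.22 or below. Hnmt, which methylates histamine, had 0.075.

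In the list around proline, ornithine and glutamate, 1 of 10 rose and 1 fell. Prodh2, the hydroxyproline dehydrogenase, went from 8.57 ± 0.12 to 8.85 ± 0.082 (adjusted p = 0.0378, limma, n = 6). Odc1, which turns ornithine, also the substrate of Oat, into the polyamine putrescine, went from 8.68 ± 0.19 to 8.31 ± 0.11 (adjusted p = 0.0382, limma). All 6 PSC arrays lay below every control for Odc1. The enzymes after Prodh and Oat, Aldh4a1 and Glud1, named after their values were seen, had 0.12 and 0.015.

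None of the 5 glyoxylate genes passed. Pipox and Hoga1, of sarcosine and hydroxyproline breakdown, had -0.25 and -0.23 with adjusted p of 0.105 and 0.117 (limma). The other 3, Hao1, Hao2 and Grhpr, named after their values were seen, had 0.20, 0.24 and 0.18. The list's median was 0.18. Among 13 genes of pyruvate and the malate-aspartate shuttle 0 passed, with values above 0 for 10. Pck1, the committing enzyme of gluconeogenesis, had 0.51 (SE 0.15, adjusted p = 0.075, limma), and Mdh1, the cytosolic malate dehydrogenase, 0.18.

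For the supply of pyridoxal phosphate, 0 of 3 measured genes passed. Alpl, an ectophosphatase that acts on pyridoxal phosphate among other substrates, had -0.80 (SE 0.22, adjusted p = 0.0726, limma), with 5 of 6 PSC arrays below every control and PSC replicate 4 within the controls. Pdxk, the kinase that makes the cofactor, had 0.058. Among 11 amino acid transporters 0 passed, with a median of 0.12. Slc43a1, a carrier of large neutral amino acids, had 0.49 (adjusted p = 0.053), and Slc1a2, a glutamate carrier of hepatocytes around the central vein, 0.57 (adjusted p = 0.0796).

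Among 14 receptors and transcription factors 2 rose and 1 fell. Ppara, the nuclear receptor of the fasting response, went from 8.92 ± 0.16 to 9.33 ± 0.18, and Cebpa, a hepatocyte transcription factor, from 8.65 ± 0.12 to 8.95 ± 0.13 (SD, n = 6; adjusted p = 0.0345 and 0.0412, limma). Ppargc1a, a coactivator that induces gluconeogenesis, went from 5.56 ± 0.16 to 5.08 ± 0.21 (adjusted p = 0.0247), with 5 of 6 PSC arrays below every control. Klf15 and Gcgr, a regulator of amino acid breakdown and the glucagon receptor, named after their values were seen, had 0.19 and -0.073 and did not pass.

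Of these 7 calls, each was lost in some of the 12 fits without 1 array. Ppargc1a was kept in 7, Kyat1 in 5, Ppara and Odc1 in 4, Prodh2 in 3, and Srr and Cebpa in 1. The highest adjusted p in these fits was 0.0573 for Ppargc1a and between 0.0667 and 0.0996 for the other 6.

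**Figure D4:**
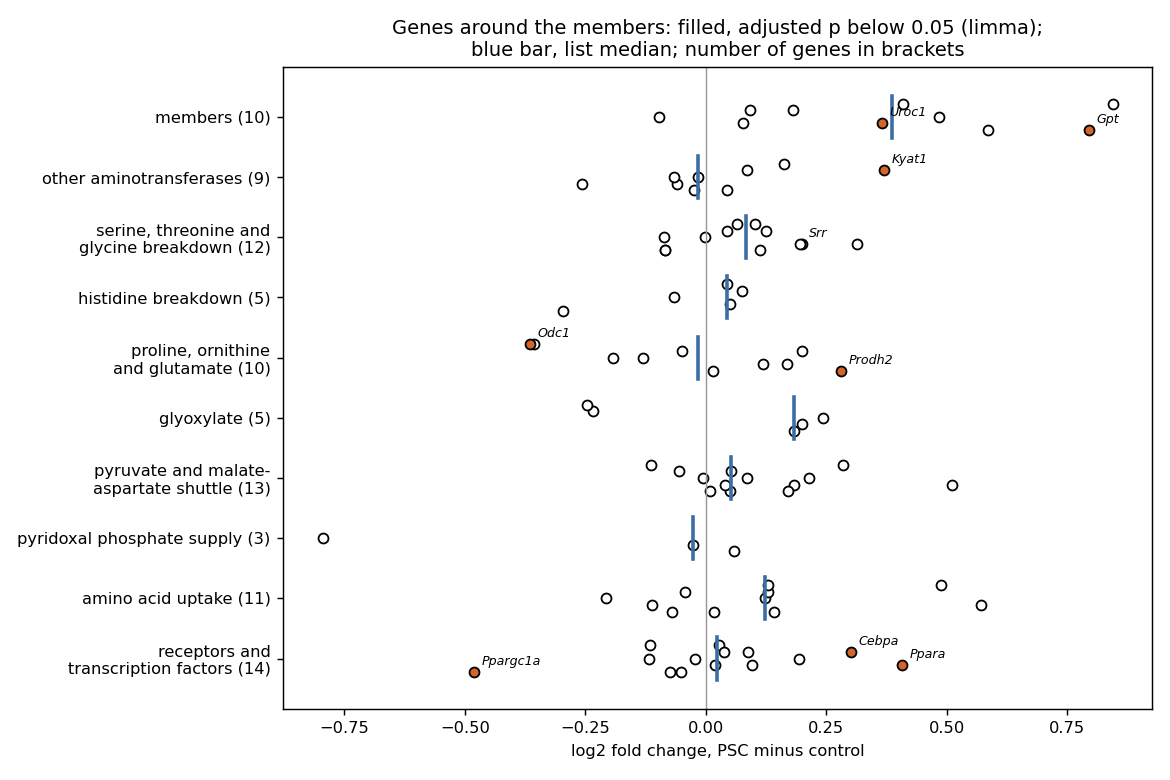
Log2 fold change, PSC minus control (horizontal axis), of the 10 members and of the 82 measured genes of 9 lists (rows, number of genes in brackets), filled and named where the adjusted p lay below 0.05 in limma; the blue bar is the list's median. The members' median of 0.39 lies to the right of that of every list, and Gpt, Uroc1, Kyat1, Srr, Prodh2, Cebpa and Ppara are the filled points above 0. Members and lists were chosen with earlier results of these data known.

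Some markers of other cells moved with the diet in the same samples. In bulk liver fewer cells of a type and less RNA per cell cannot be told apart. Of 8 macrophage and Kupffer cell markers 1 rose, Cd163, and 8 of 8 had values above 0, with a mean log2 signal of 6.19 to 7.34 in controls and 7.23 to 7.67 in PSC-fed rats. Of 8 stellate cell markers 4 fell, Dcn, Col1a2, Col3a1 and Rgs5, with 7.09 to 7.40 in controls and 6.75 to 7.18 with PSC. Of 8 lymphocyte markers 1 rose, Nkg7, and 7 of 8 had values above 0, with ranges of 4.00 to 4.12 and 4.13 to 4.32. Both ranges lay below the lowest array median, 4.71. Within this list Cd3e, Cd3d and Cd3g had values of only 0.013, 0.065 and -0.012. Bile duct markers were mixed, with 1 of 5 called lower, Spp1, but 3 of 5 with values above 0 and a median of 0.037. Their mean signal ranged from 4.58 to 4.76 in controls and from 4.50 to 4.70 with PSC. Of these calls, Dcn and Col1a2 were kept in 12 of 12 fits without 1 array, Nkg7 and Spp1 in 8, Cd163 in 4, Rgs5 in 3 and Col3a1 in 2. Of all genes 2.6% were called, and 19.1% reached an unadjusted p below 0.05 in either direction (limma). That unadjusted p was reached by 6 of 8 macrophage markers, all higher, and 6 of 8 stellate cell markers, all lower. It was also reached by 5 of 8 lymphocyte markers, all higher, and among 5 bile duct markers by 1 higher and 2 lower. The part of these cells in the members' values was not tested.

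Markers of hepatocytes themselves stayed within a narrow range, with 0 of 6 called and list means of 12.24 to 12.31 in controls and 12.29 to 12.35 in PSC-fed rats. Their control means, from 11.77 to 13.16, are very bright, and whether such signals can still show a change was not tested. The remaining periportal markers, without Sds and Hal, had 0 of 6 called and a median of 0.11, and the remaining pericentral markers, without Oat, 0 of 6 and a median of 0.098. Genes of pancreas, skeletal muscle, adipocytes, neutrophils, red blood cells and endothelium also had 0 called, of 7, 4, 5, 5, 3 and 3, by limma. At an unadjusted p below 0.05, which 19.1% of all genes reached in either direction, these lists held 1, 0, 1, 2, 1 and 1 genes, and the hepatocyte, periportal and pericentral lists 0, 2 and 1.

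**Figure D5:**
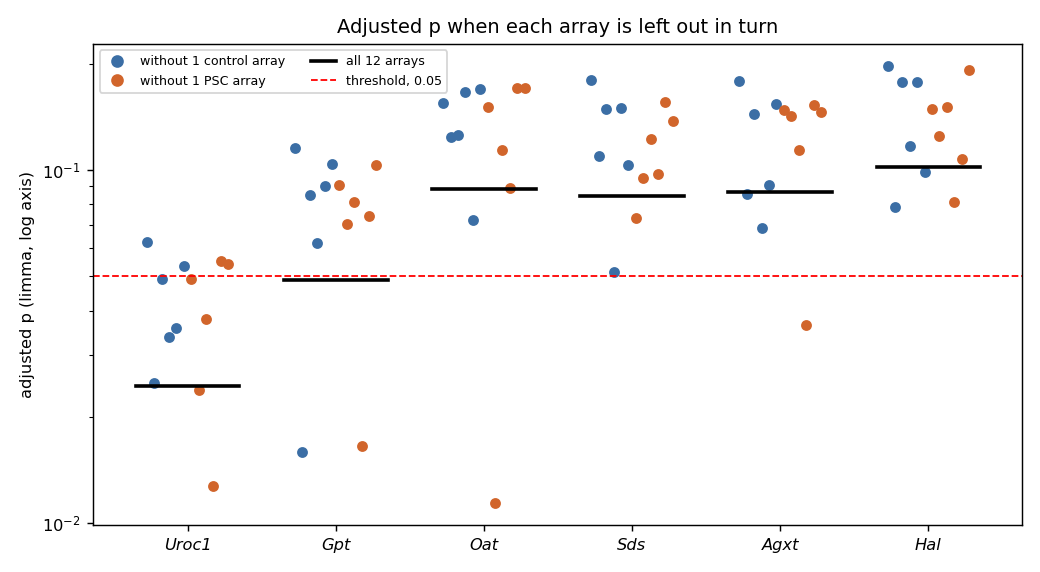
Adjusted p from limma (vertical log axis) for 6 members when each of the 12 arrays is left out, blue for a control and orange for a PSC array, with the value from all arrays as a black bar and the threshold of 0.05 as a dashed line. Uroc1 stays below the line in 8 of 12 fits and Gpt in 2, Oat and Agxt each cross it in 1, and Sds and Hal in 0.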

How the data were processed

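Liver RNA of 12 rats, 6 per diet, was hybridised to arrays. The deposited table gives a log2 signal for each transcript cluster, to 2 decimals. For it the authors used RMA in Affymetrix Expression Console, according to the submitters' processing notes. The sources used here name no version, genome build, filter or detection call. RMA compresses small changes of dim genes. Of 30347 rows, 18511 had 1 gene symbol in the platform annotation, 575 had several and 11261 none, and the row with the highest mean stood for each of 18166 genes. Groups came from the sample titles. Each sample is 1 rat, so that p-values measure the spread between rats.

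Diets were compared with limma 3.58.1 in R 4.3.3 (lmFit and eBayes, two-sided, Benjamini-Hochberg over all genes, threshold 0.05), which was tested on simulated data. Paired members were compared by exact permutation of arrays. Members, lists and pairs were chosen with earlier results of these data known. Named are all members, called list genes, the 2 smallest p of lists without a call, and the 4 genes most like Gpt and Oat, except where a gene is said to be named after its value was seen. Symbols that consist of a LOC or RGD number were left out of that rule. Alternatives were renormalization, median centring, cyclic loess, variance trend, array weights, a filter on dim genes, mean rows, all rows, a threshold of 0.1, the replicate number as a block and leaving out each array. Leaving out PSC replicates 2 and 5, which stand apart from the other PSC arrays, was added after seeing the data. Promoters came from RefSeq (GRCr8). Figures were drawn with matplotlib 3.10.9.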

Additional observations from a re-analysis of the deposited data

Results flagged for a closer look

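In groups of 6 rats, 12 values stood far from the others by Dixon's criterion, of 106 groups tested, and chance alone marks about 5% of groups. Agxt on PSC replicate 4 was at a log2 signal of 8.12, with the nearest PSC array at 8.49. Mdh1 on the same array was at 10.15, with the nearest at 10.35. Amdhd1 on control replicate 6 was at 9.38, with the nearest control at 8.04, and Hoga1 on that array was at 10.06, with the nearest at 9.85. Prodh2 on control replicate 2 was at 8.80, with the nearest control at 8.59.
Control replicate 6 also held Psat1 at 7.19 (nearest 6.12), Slamf7 at 4.45 (nearest 4.66) and Alb at 13.14 (nearest 13.16). PSC replicate 2 held Zmat2 at 7.95 (nearest 8.37) and Ppp1r14a at 5.06 (nearest 5.58). Cd163 on control replicate 1 was at 4.96 (nearest 6.04), and Col3a1 on PSC replicate 4 at 9.08 (nearest 8.77).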

How the results depend on the processing

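Of 50 genes followed over the alternatives, members included, 6 reversed in sign at least once, none a member and none called with all arrays: Tat, Glud1, Alb, Mrpl3, Zmat2 and Arl6ip6. Median centring gave -0.030 for Glud1 and -0.00833 for Zmat2, renormalization 0.0203 for Mrpl3 and 0.00188 for Arl6ip6, cyclic loess 0.0192 for Mrpl3, and array weights 0.0382 for Tat, 0.000957 for Mrpl3 and 0.00221 for Alb. Without PSC replicates 2 and 5 Tat had 0.0742, Mrpl3 0.0517 and Alb 0.020. Leaving out single arrays moved Tat from -0.0773 to 0.107, Alb from -0.012 to 0.008, Mrpl3 from -0.0593 to 0.037, Zmat2 from -0.00633 to 0.122 and Arl6ip6 from -0.0637 to 0.0103. Without each array in turn, 142 to 735 genes, 0 to 3 members and 0 to 9 list genes were called, where all arrays gave 473, 2 and 7. Members called were 0 without control replicate 1 or 6 or PSC replicate 5 or 6, Uroc1 alone without control replicate 3, 4 or 5 or PSC replicate 1 or 3, Oat and Uroc1 without PSC replicate 2, and Gpt, Uroc1 and Agxt without PSC replicate 4. The change in Gpt minus Gpt2 stayed between 0.63 and 0.84. With the replicate block 94 genes, 0 members and 3 list genes were called, and Gpt minus Gpt2 kept its change of 0.72 at an adjusted p of 0.188 by exact sign flips. Same-numbered arrays deviated together in 1 of 6 pairs only (r between -0.15 and 0.11). The labels state no pairing by number, and weak correlations of this kind cannot exclude one. With all rows tested 254 genes, 1 member (Uroc1) and 1 list gene were called, and without dim genes 760 genes and 12 list genes. At a threshold of 0.1 the counts were 1140, 5 and 13, with Oat, Sds and Agxt joining Gpt and Uroc1. Without PSC replicates 2 and 5 they were 225, 1 (Oat) and 1, and Gpt minus Gpt2 was 0.77 (adjusted p = 0.0857). Renormalization, median centring, cyclic loess, variance trend, array weights, the filter on dim genes and mean rows each called Gpt and Uroc1. The causes of these differences were not tested. No depth applies to arrays, and without detection calls the signal of Sds over background is unknown.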
